A study of Mus musculus with 3 samples.

Results

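Cytochrome P450 genes were described in palatal tissue of ICR mouse embryos on 3 Affymetrix GeneChip mouse arrays, 1 before, 1 during and 1 after fusion of the palatal shelves. A gene was taken as a member when a probe set carried its symbol alone and the symbol was Cyp followed by a digit, with *Cyp26a1* and *Cyp26b1* left out. The rule gave 71 of the 18193 genes on the array, with 96 probe sets, and each gene was represented by its brightest probe set. Of the 71, 1 is annotated as a pseudogene, *Cyp4f41-ps*. Another 4 probe sets that name several P450 genes at once were not used.

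The maxillary part of the head was taken from embryos labelled female at day 14 of gestation and grown in suspension in BGJb medium. Tissue was collected after 5 h, when the shelves were apart, after 24 h, when the epithelial seam was present, and after 60 h, when the seam had gone. At 5 h the dissected piece was a free shelf margin, and at the later times it came from the midline of the joined palate, so stage, time in culture and dissected piece change together and their parts cannot be told apart. The methods give 5 samples per stage and separate RNA extractions, and do not state whether extracts were pooled before hybridization. With 1 array per stage there was no test between stages, and embryos cannot be told from stages. Differences are given as ratios of signals, and a gene was counted when its ratio was over 2-fold, a mark of size only.

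P450 enzymes are heme proteins that put oxygen into lipophilic molecules. Most sit in the endoplasmic reticulum and take electrons from P450 reductase, and a few sit in mitochondria and take them from ferredoxin. Families *Cyp1* to *Cyp3* mostly oxidize foreign compounds, family *Cyp4* hydroxylates fatty acids and eicosanoids, and the higher-numbered families make or break down sterols, bile acids, steroid hormones and vitamin D. Many of the drug-oxidizing members are known chiefly from adult liver, whereas a smaller group belongs to surface epithelia of airway, nose and skin.

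Signals were scaled to one trimmed mean, with factors of 1.11 before, 0.918 during and 0.986 after fusion. A floor stood for background on each array, the 95th percentile of 81 probe sets for olfactory, vomeronasal and taste receptors. In scaled units it was 19.4 before, 13.3 during and 14.7 after fusion. Of genes of all kinds, 68.5% passed it before, 74.7% during and 74.4% after fusion. All 13 genes of a pan-epithelial list were above the floor on all 3 arrays, and the hepatocyte list had 1, 0 and 1 of 9 genes above it, with *Alb* and *Afp* under it on all 3.

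Most P450 genes were not measurable above background at any stage. Of the 71, 39 (54.9%) were under the floor on all 3 arrays, against 3671 of 18193 genes (20.2%) on the whole array. Their scaled signals lay between 0.275 and 16.8. A further 15 (21.1%) were above it on all 3, where the share of all genes was 65.1%, and 17 were above it on 1 or 2. The number above the floor was 17 before, 25 during and 26 after fusion. The floor before fusion was the highest of the 3, and with that one floor on every array the numbers were 17, 17 and 20, with 48 members under it throughout. A signal under the floor was not detectable here, which does not show that the transcript was absent.

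**Figure D1:**
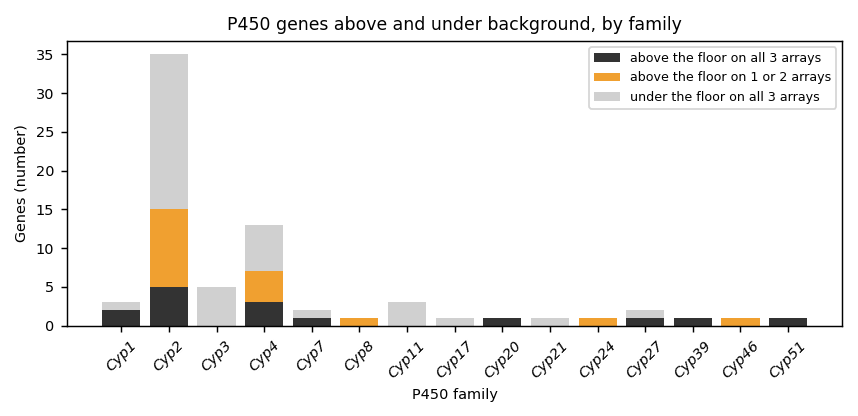
Number of P450 genes in each family by whether their signal lay above the floor on all 3 arrays, on 1 or 2 arrays, or on none. Family *Cyp2* has 35 genes, 20 of them under the floor throughout, and families *Cyp3* and *Cyp11* have no gene above it.

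The families wholly under background included those of the liver and of the steroid-forming glands. All 5 *Cyp3a* genes, the main drug oxidases of liver and gut, were under the floor on all 3 arrays. Their brightest member, *Cyp3a11*, had signals of 7.91 before, 5.88 during and 6.90 after fusion. All 5 genes of steroid hormone synthesis were under it too. Among these, *Cyp11a1*, which cuts the cholesterol side chain, had signals of 11.9, 10.8 and 0.395 before, during and after fusion. *Cyp17a1*, needed for androgens, had 12.8, 2.20 and 3.55, and *Cyp21a1*, needed for corticoids, had 16.8, 7.90 and 1.78. None of these values passed the floor of its own array. *Cyp1a2*, a liver enzyme induced together with *Cyp1a1*, was under it as well, as was *Cyp7a1*, which starts bile acid synthesis in liver.

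Within family *Cyp2*, 20 of 35 genes were under the floor throughout and 5 were above it throughout (*Cyp2d22*, *Cyp2f2*, *Cyp2j6*, *Cyp2j9* and *Cyp2s1*). The numbers above it were 6 before, 11 during and 10 after fusion. Among the subfamilies, *Cyp2c* had 8 of 11 genes and *Cyp2d* 6 of 8 genes under the floor on all 3 arrays. In family *Cyp4*, 6 of 13 genes were under it throughout, and the numbers above it were 3 before, 5 during and 7 after fusion. By role, 22 of 36 genes for foreign compounds were under the floor throughout, 9 of 19 for fatty acids and eicosanoids, 1 of 7 for cholesterol, oxysterols and bile acids, and 2 of 3 for vitamin D.

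Across the 3 comparisons, 11 members passed 2-fold. During over before fusion, 19 members gave a ratio, and 2 of them (10.5%) were over 2-fold higher, where 5.77% of the 13214 genes with a ratio were. In the same comparison 1 member (5.26%) was over 2-fold lower, against 3.35% of all genes. That member (*Cyp2c70*) and 1 of the 2 higher ones (*Cyp46a1*) were under the floor on 1 array of the pair, so their values are bounds. After over before fusion, 6 of 23 members (26.1%) were higher, against 12.9% of 13593 genes, and 2 (8.70%) were lower, against 9.84%. Of the 6 higher, 2 (*Cyp4a12a* and *Cyp4f39*) were under the floor before fusion. They are among the 23 only because their after signal passed the floor, so their share is no more than a description. After over during fusion, 4 of 31 members (12.9%) were higher, against 8.82% of 14187 genes, and 2 (6.45%) were lower, against 5.12%. At counts this small, 1 gene more or less shifts the members' share by several points, and the shares are descriptions of these arrays. On the log2 scale the members' median ratio was 0.05 (during over before), 0.21 (after over before) and 0.16 (after over during), and that of all genes was -0.02, -0.07 and -0.04; scaled to the poly-A controls the first 2 of the members' medians were below 0, at -0.23 and -0.37, and scaled to the hybridization controls the third was -0.02. The split of after over before was 7 higher and 0 lower with the signals as deposited, and 5 and 5 with the poly-A controls. That of during over before was 3 and 0 as deposited and 1 and 2 with the poly-A controls, and that of after over during was 6 and 1 with one median for all arrays.

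**Figure D2:**
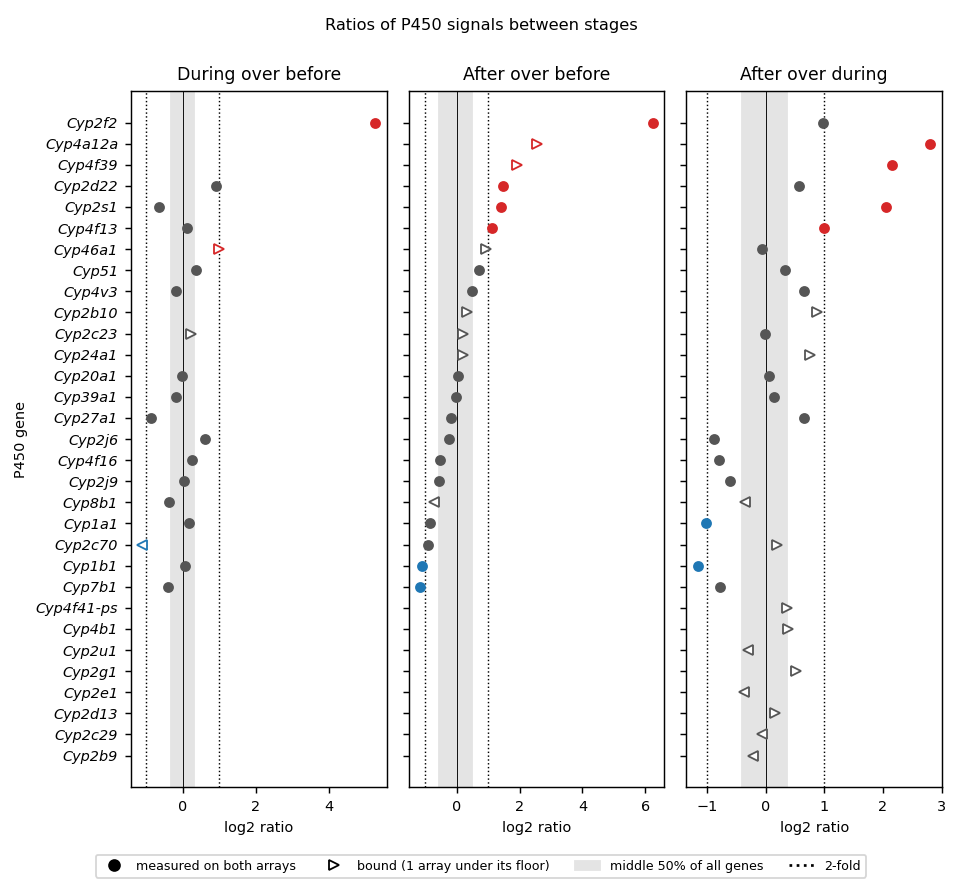
Log2 ratio of scaled signals for each P450 gene in the 3 comparisons, with filled circles for ratios measured on both arrays, open triangles for bounds, dotted lines at 2-fold and a grey band for the middle 50% of all genes. *Cyp2f2* lies at 5.27 for during over before and at 6.24 for after over before fusion, beyond every other member.

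The largest P450 difference was that of *Cyp2f2*. This gene encodes the airway P450 of mice that turns naphthalene and styrene into toxic epoxides in the club cells of the bronchioles. Its signal was 52.7 before, 2028 during and 3985 after fusion. All 3 values were above the floor, and the signal was 38.5-fold higher during than before fusion and 75.6-fold higher after than before. Between the during and after arrays the ratio was 1.96, inside 2-fold. Under the scalings and floors tried, the after-over-before ratio ran from 58.2 to 85.4.

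The promoter windows of 5 members that passed 2-fold are shown here, 3 that were higher and 2 that were lower after fusion, picked after their values were seen so that both directions can be compared. Each runs 5′ to 3′ over the 250 bases before the annotated start, from RefSeq on build GRCm38.p6, and capitals mark matches to the searched motifs on either strand. *Cyp2f2* lies at chr7:27119705-27119954 on the plus strand and *Cyp2s1* at chr7:25816526-25816775 on the minus strand. *Cyp4f39* lies at chr17:32452473-32452722 on the plus strand, *Cyp1a1* at chr9:57697363-57697612 on the plus strand and *Cyp1b1* at chr17:79715062-79715311 on the minus strand.
Cyp2f2: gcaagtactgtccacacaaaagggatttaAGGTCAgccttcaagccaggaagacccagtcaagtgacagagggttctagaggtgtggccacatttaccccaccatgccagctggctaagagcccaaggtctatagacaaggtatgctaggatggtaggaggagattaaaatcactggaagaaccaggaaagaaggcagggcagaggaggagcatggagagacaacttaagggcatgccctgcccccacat
Cyp2s1: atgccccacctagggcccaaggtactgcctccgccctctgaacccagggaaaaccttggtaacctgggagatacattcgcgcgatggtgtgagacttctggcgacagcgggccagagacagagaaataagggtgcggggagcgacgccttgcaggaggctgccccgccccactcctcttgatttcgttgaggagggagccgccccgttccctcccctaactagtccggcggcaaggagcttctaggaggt
Cyp4f39: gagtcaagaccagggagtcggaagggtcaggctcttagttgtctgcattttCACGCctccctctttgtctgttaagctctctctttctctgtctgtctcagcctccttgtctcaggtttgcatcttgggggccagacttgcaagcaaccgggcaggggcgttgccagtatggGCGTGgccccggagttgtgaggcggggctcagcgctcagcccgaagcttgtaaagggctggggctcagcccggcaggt
Cyp1a1: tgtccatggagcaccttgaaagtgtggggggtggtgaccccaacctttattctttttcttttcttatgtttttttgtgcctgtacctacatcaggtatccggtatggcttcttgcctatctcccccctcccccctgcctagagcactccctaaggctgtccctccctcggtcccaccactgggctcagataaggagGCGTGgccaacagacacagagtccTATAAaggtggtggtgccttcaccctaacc
Cyp1b1: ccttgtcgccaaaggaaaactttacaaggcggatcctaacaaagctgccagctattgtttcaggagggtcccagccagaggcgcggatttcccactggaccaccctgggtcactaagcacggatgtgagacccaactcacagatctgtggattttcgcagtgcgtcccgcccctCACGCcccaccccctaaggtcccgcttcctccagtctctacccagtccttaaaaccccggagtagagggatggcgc
In the *Cyp2f2* window the capitals mark AGGTCA, a half-site of nuclear receptors, 221 bases before the start. No searched motif was in the *Cyp2s1* window, which says only that these letters are not there. The *Cyp4f39* window holds GCGTG, the shared core of AHR and HIF elements, at 199 and 78 bases before the start, the first of these on the other strand and so printed as CACGC. The *Cyp1a1* window holds the same core at 54 and TATAA, the core of a TATA box, at 30 bases before the start, and the *Cyp1b1* window holds the AHR and HIF core at 76, on the other strand. The windows are 51.6% G and C in *Cyp2f2*, 62% in *Cyp2s1*, 59.6% in *Cyp4f39*, 53.6% in *Cyp1a1* and 58% in *Cyp1b1*.

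A window was found for 50 of the 71 members, of which 22 were above the floor on some array and 28 under it throughout. The AHR and HIF core was in 10 of the 22 and 3 of the 28, and in 28.2% of all 27025 windows. TATAA was in 7 of the 22 and 15 of the 28, and in 23.5% of all windows. CCAAT was likewise in 7 of the 22 and 15 of the 28, and in 34.5% of all. The forkhead element TGTTTAC was in 0 of the 22 and 6 of the 28, and in 3.09% of all. AGGTCA was in 5 of the 22 and 6 of the 28, against 13.8% of all, and TTGCNNAA, an element of C/EBP factors, in 5 and 4, against 9.55%. The sterol regulatory element TCACNCCAC was in none of the 50, against 1.04% of all. These are matches of short letters, counted on both strands, and not binding sites.

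*Cyp2f2* was not alone among the genes listed for airway secretory epithelium. That list has 14 genes, with 4 above the floor on the before array and 10 on each later one. Without *Cyp2f2*, 4 of 7 genes with a ratio were higher during than before fusion and 5 of 8 were higher after than before, with none lower. *Bpifa1*, a secreted protein of nose and upper airway, had signals of 37.3, 2606 and 5088 before, during and after fusion. *Cbr2*, the carbonyl reductase of mouse lung, had 120.2, 2060 and 5224, and *Aldh1a1*, a retinaldehyde dehydrogenase, had 22.6, 934 and 1922. In each of these the during and after arrays lay far above the before array, as for *Cyp2f2*. The defining marker of club cells, *Scgb1a1*, passed the floor on none of the 3 arrays (1.23, 0.918 and 1.87). Nor did *Muc5ac* and *Spdef*, genes of goblet cells. Other secretory genes of the list did, among them *Agr2* (6.91, 21.8 and 101) and *Muc16* (1.89, 18.4 and 36.2), each above the floor during and after fusion. The summed signal of the list, *Cyp2f2* included, was 302 before, 8042 during and 18025 after fusion. In bulk tissue a difference in the number of cells of a type and one in RNA per cell cannot be told apart.

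Other cell type lists also differed between the arrays. Of 12 ciliated genes, 5 passed the floor before fusion and 11 on each later array, with summed signals of 228, 3587 and 23797, and 11 of 11 with a ratio were higher after than before fusion. The 13 pan-epithelial genes summed to 13158, 23458 and 31843, and 7 of 13 were higher after than before. Those 7 were the keratins *Krt5*, *Krt8*, *Krt14*, *Krt15*, *Krt18* and *Krt19*, and *Cldn7*. The after-over-before ratios of *Epcam*, *Cdh1*, *Cldn4* and *Grhl2* lay between 1.26 and 1.67, and those of *Trp63* and *Esrp1* were 0.613 and 0.700. The macrophage list summed to 822, 1738 and 3853, and 12 of 12 genes with a ratio were higher after than before. The endothelial list summed to 2759, 1082 and 947, with 5 of 9 genes lower during than before fusion and 2 of 9 lower after than before. Its sums depend much on *Aplnr*, the brightest gene of the list on each array, with 1613, 425 and 252. The olfactory list summed to 241, 387 and 962, and 2 of 4 genes with a ratio were higher after than before (*Sec14l3* at least 31.9-fold and *Gng13* at least 4.36-fold), while *Obp1a*, *Obp2a*, *Cnga2* and *Gpx6* were under the floor on all 3 arrays. The hepatocyte list summed to 76.2, 53.2 and 77.1. The adipocyte list summed to 142, 154 and 442, and 2 of 3 genes with a ratio were higher after than before (*Fabp4* at least 5.49-fold and *Lpl* 2.64-fold), while *Adipoq*, a defining gene of fat cells, was under the floor on all 3. The part of these cell types in any single P450 difference was not tested.

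**Figure D3:**
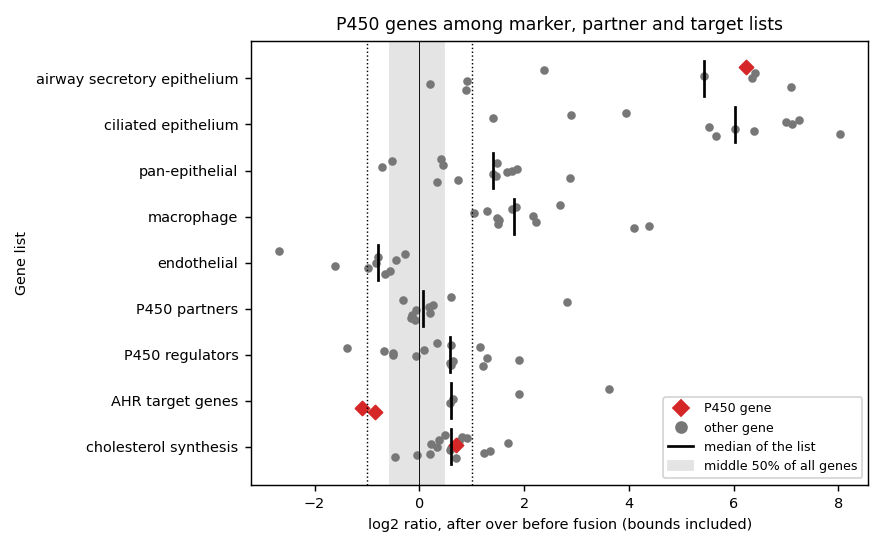
Log2 ratio of after over before fusion for genes of 9 lists, bounds included, with P450 genes as red diamonds, other genes as grey circles, a black bar at the median of each list, a grey band for the middle 50% of all genes and dotted lines at 2-fold. *Cyp2f2* at 6.24 stands among the secretory genes, while *Cyp1a1* at -0.85 and *Cyp1b1* at -1.10 stand below the other genes of the AHR list.

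*Cyp2s1* had a different course. It encodes a P450 of surface epithelia outside the liver. Its signal was 140.6 before, 90.3 during and 374 after fusion, lowest on the during array. The after signal was 2.66-fold higher than before and 4.15-fold higher than during fusion, and the ratio of during over before was 0.642. Both differences past 2-fold held under every scaling and floor tried, with ranges of 2.05 to 3.01 and 3.69 to 4.58. *Cyp2s1* and *Cyp2f2* lie in one gene cluster on chromosome 7, which in the annotation holds 13 P450 genes. Of the 8 members there, 2 were under the floor throughout (*Cyp2b13* and *Cyp2a12*), and *Cyp2s1* and *Cyp2f2* were the only members of the cluster above it on all 3 arrays.

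Between these in the cluster, signals stayed near background. *Cyp2b10*, a target of the receptor CAR in liver, had 8.25, 12.1 and 24.4 before, during and after fusion, above the floor on the after array alone. The after value was at least 1.26 times the before value and at least 1.83 times the during value. A second probe set gave bounds of 1.22 and 1.77, both probe sets being of a kind that can read related transcripts. The remaining probe set of the gene, not of that kind, had 6.02, 4.96 and 8.38, under the floor on every array. *Cyp2g1*, a P450 of the olfactory mucosa, had 13.5, 7.35 and 18.9, above the floor on the after array alone. *Cyp2b19*, a keratinocyte P450, had 7.91, 14.7 and 7.10, and *Cyp2b9* had 15.3, 17.2 and 9.17, each above the floor on the during array alone. The floor was highest before fusion, at 19.4, and every signal of *Cyp2g1*, *Cyp2b19* and *Cyp2b9* lay under that value. Of the 4 genes, *Cyp2b10* included, none passed 2-fold.

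*Cyp2d22*, held to be the mouse counterpart of the human drug oxidase CYP2D6, was the single *Cyp2d* gene above the floor on all 3 arrays. Its signal was 50.7 before, 94.6 during and 139.5 after fusion. The after signal was 2.75-fold higher than before, and the ratio of during over before was 1.86. A second probe set of the gene had 41.1, 56.1 and 53.7, with an after-over-before ratio of 1.30. The call past 2-fold thus rested on 1 of its 2 probe sets. In the gene cluster around it, 6 of 7 members were under the floor on all 3 arrays.

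*Cyp2c70*, which in mouse liver hydroxylates bile acids, was brightest before fusion. Its signals were 28.5 before, 2.39 during and 15.3 after fusion, the during value under the floor. It was at least 2.14-fold lower during than before fusion, the single member past 2-fold in that direction, and its ratio of after over before was 0.536. With the signals as deposited, with the hybridization controls or with one common floor, the bound was inside 2-fold. Among other *Cyp2* genes, *Cyp2e1*, the ethanol-oxidizing P450, had 14.05, 19.1 and 5.33 and was above the floor on the during array alone. So was *Cyp2c29* with 11.5, 15.4 and 13.7. Every signal of both genes lay under 19.4, the floor of the before array. *Cyp2c23* had 9.03, 22.6 and 22.4, above the floor during and after fusion, with a during-over-before ratio of at least 1.16.

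**Figure D4:**
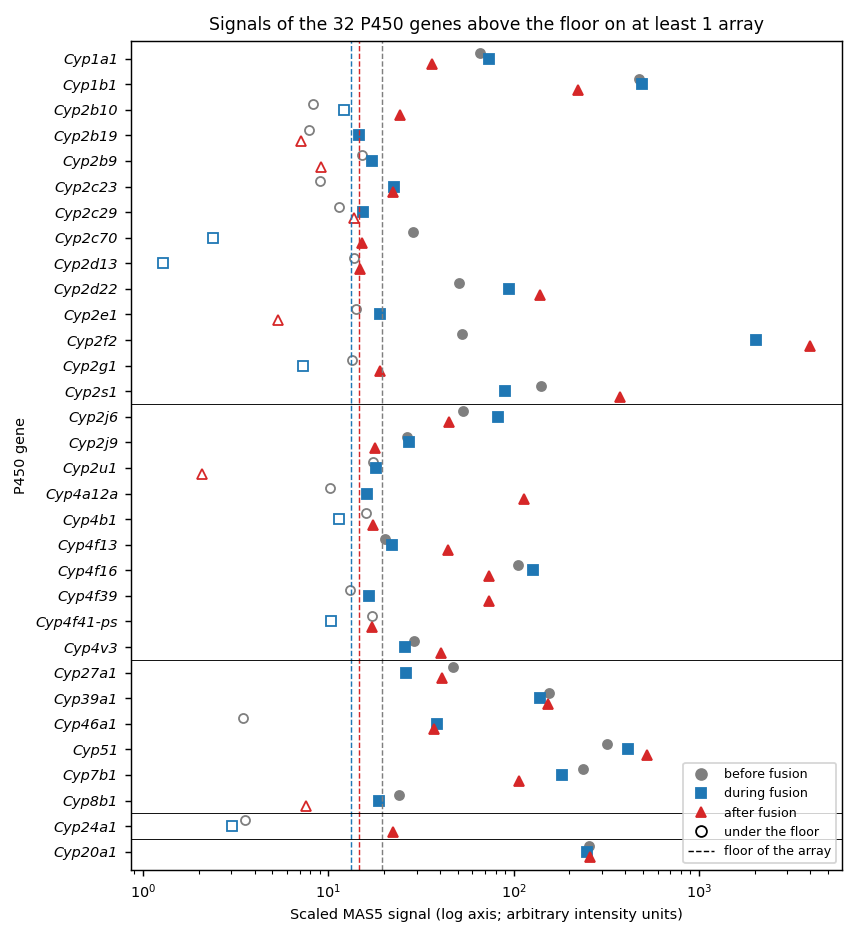
Scaled signals of the 32 P450 genes that passed the floor on 1 array or more, on a log axis, with grey circles for before, blue squares for during and red triangles for after fusion, open where the signal was under the floor of its array and dashed lines at the 3 floors. The after symbol lies right of the other two in *Cyp4a12a* (113), *Cyp4f39* (73.6) and *Cyp2s1* (374), and left of them in *Cyp1b1* (222).

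The AHR-responsive family *Cyp1* went the other way. *Cyp1a1* and *Cyp1b1* oxidize polycyclic aromatic hydrocarbons and are induced by the aryl hydrocarbon receptor AHR, and *Cyp1b1* also acts on estrogens and retinoids. *Cyp1b1* had signals of 477 before, 494 during and 222 after fusion. The before and during values were close, with a ratio of 1.04, and the after value was 2.15-fold lower than before and 2.23-fold lower than during. *Cyp1a1* had 65.8, 74.1 and 36.4, with the after value 2.04-fold lower than during and 0.553 times the before value. Both genes had their lowest signal on the after array.

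These *Cyp1* differences lay near the 2-fold mark. A second *Cyp1b1* probe set had 130.1, 142 and 105 before, during and after fusion, with an after-over-before ratio of 0.809 and an after-over-during ratio of 0.740, both inside 2-fold. With the signals as deposited the after-over-before ratio of *Cyp1b1* was also inside 2-fold, and scaling to one median or by quantiles brought the after-over-during ratio of *Cyp1a1* inside it. The direction of these ratios held in every setting that gave a value.

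Other genes of the AHR pathway had no such low after signal. *Ahr* had signals of 244, 532 and 567 before, during and after fusion, 2.18-fold higher during and 2.32-fold higher after than before. Its repressor *Ahrr* had 65.0, 65.0 and 96.9, and *Tiparp*, another AHR target, had 319, 339 and 495. *Nqo1*, a quinone reductase under both AHR and NRF2, had 106, 274 and 396 and was 3.72-fold higher after than before. *Aldh3a1* was at least 12.2-fold higher after than before. Of the 4 AHR targets with a ratio that are no P450 genes, 2 were thus higher after than before fusion and none lower, while *Cyp1b1* was lower.

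The *Cyp4* genes accounted for 3 of the 6 members higher after than before fusion. *Cyp4a12a*, an arachidonic acid hydroxylase best known from male mouse kidney, had signals of 10.3 before, 16.2 during and 113 after fusion. The before value was under the floor, and the after value was at least 5.84-fold higher than before and 7.01-fold higher than during fusion. The annotation places the closely related *Cyp4a12b* beside it, and whether the probe set also reads that copy was not tested. *Cyp4f39*, whose human counterpart CYP4F22 hydroxylates the very long fatty acids of the skin barrier, had 13.15, 16.6 and 73.6. Its after value was at least 3.79-fold higher than before, where the signal was under the floor, and 4.43-fold higher than during. For both genes the before and during arrays were near background and the after array stood apart. Both stayed past 2-fold under every floor and scaling tried. Each had a single probe set, so the choice of probe set could not change its ratios.

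*Cyp4f13*, another *Cyp4f* hydroxylase, had 20.3 before, 22.0 during and 44.1 after fusion. Its after value was 2.17-fold higher than before and 2.00-fold higher than during, the latest array again being the brightest. The first was inside 2-fold under poly-A scaling and under a floor at the median. The second lay on the 2-fold mark, and it was inside 2-fold when signals were left as deposited, scaled to the hybridization or poly-A controls, or held to the median of each array as floor. *Cyp4f39* and *Cyp4f13* stand at the ends of a cluster of 8 P450 genes on chromosome 17. *Cyp4f16*, which lies between them, had 106, 127.5 and 73.8, with an after-over-before ratio of 0.695 and an after-over-during ratio of 0.579. A second probe set of *Cyp4f16* was nearly level, with 29.2, 28.5 and 29.1 and ratios of 0.996 and 1.02. *Cyp4f15* and *Cyp4f14* in the same cluster were under the floor on all 3 arrays. Within the cluster the after-over-before values of the probe sets kept thus lay between 0.695 for *Cyp4f16* and at least 3.79 for *Cyp4f39*.

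Over the family, 3 of 5 *Cyp4* genes with a ratio were higher after than before fusion and 3 of 7 were higher after than during, with none lower. Over all genes these shares were 12.9% and 8.82%, and *Cyp4a12a* and *Cyp4f39* had a ratio of after over before only because their after signal passed the floor, so the family count is no more than a description. The median log2 ratio of the 7 was 0.65. *Cyp4v3*, counterpart of the human fatty acid hydroxylase CYP4V2, had 29.2, 25.8 and 40.5 before, during and after fusion, with an after-over-during ratio of 1.57. *Cyp4b1*, a lung P450, had 15.9, 11.5 and 17.4, above the floor after fusion alone, where the floor was lower than before fusion. The pseudogene *Cyp4f41-ps* had 17.2, 10.4 and 17.2, equal before and after fusion and above the floor of the after array alone. Of the arachidonic acid epoxygenases, *Cyp2j6* had 53.3, 82.0 and 44.8 and *Cyp2j9* had 26.6, 27.4 and 17.85, all above the floor and inside 2-fold in each comparison. A second probe set of *Cyp2j6* had 38.2, 39.4 and 9.57, the last under the floor, and its after-over-before ratio was at most 0.384. *Cyp2u1* had 17.5, 18.1 and 2.07, above the floor during fusion alone, where the floor was lower than before fusion.

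Of the 7 genes for cholesterol, oxysterols and bile acids, 4 were above the floor throughout and 1 under it throughout. *Cyp7b1*, which hydroxylates oxysterols on the way to bile acids, had signals of 238.5 before, 182 during and 106 after fusion. It was 2.24-fold lower after than before, with the during array between the other two. A second probe set had 175, 134 and 76.0, and its ratio of 0.434 was past 2-fold in the same direction. With the signals as deposited the ratio of the gene was 0.504, just inside 2-fold.

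*Cyp46a1*, the cholesterol hydroxylase of neurons, was under the floor before fusion with a signal of 3.46 and had 38.8 during and 37.3 after fusion. The during value was at least 2.00-fold higher than before, on the 2-fold mark, and the after value at least 1.92-fold higher. With no floor the ratio of during over before was 11.2, and with the floor set to the median of each array the bound was 1.42. Scaling to one median, by quantiles or to the poly-A controls also brought the during-over-before bound inside 2-fold. *Cyp8b1*, a liver enzyme of bile acid synthesis, had 24.2, 18.8 and 7.59, under the floor after fusion, and was at least 1.65-fold lower after than before. That bound did not reach 2-fold.

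The remaining sterol genes were inside 2-fold throughout. *Cyp51*, the lanosterol demethylase of cholesterol synthesis, had signals of 321 before, 415 during and 523 after fusion, with an after-over-before ratio of 1.63. Its other probe sets gave ratios of 1.10 and 0.878. Among 17 genes of cholesterol synthesis, 3 were higher after than before fusion (*Msmo1* 3.24-fold, *Fdps* 2.54-fold and *Idi1* 2.35-fold), none was lower, and the median log2 ratio was 0.60. *Cyp39a1*, which acts on an oxysterol from brain, had 156, 138.5 and 153.5, nearly level over the 3 arrays. *Cyp27a1*, a mitochondrial sterol hydroxylase, had 47.4, 26.2 and 41.3, lowest on the during array with a during-over-before ratio of 0.552.

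Of the vitamin D genes, *Cyp2r1* and *Cyp27b1*, which form the active hormone, were under the floor on all 3 arrays. *Cyp24a1*, which breaks it down, had signals of 3.57, 3.03 and 22.4 before, during and after fusion and was above the floor on the after array alone. The after value was at least 1.15 times the before and at least 1.68 times the during value. A second probe set of *Cyp24a1* had 2.56, 4.96 and 0.789, under the floor on all 3 arrays. The receptor gene *Vdr*, which induces *Cyp24a1*, had no signal above the floor before fusion and was at least 2.22-fold higher after. *Cyp20a1*, a P450 without a known substrate, had 254, 248 and 260, and its after-over-before ratio was 1.02. Its 2 other probe sets gave 1.08 and 0.897.

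The partner list holds genes that carry electrons to P450 enzymes and genes of heme binding or turnover, among others. *Por*, the gene of P450 reductase, and *Fdxr*, that of ferredoxin reductase, had no probe set found under a single symbol and were not measured here. Of 10 partner genes with a ratio, *Hmox1*, which breaks down heme, was the single one past 2-fold. Its signals were 108 before, 254 during and 763 after fusion, 2.36-fold higher during and 7.09-fold higher after than before. *Cyb5a* and *Cyb5r3*, which pass electrons to microsomal P450 enzymes, *Fdx1*, the mitochondrial ferredoxin, and *Pgrmc1*, a heme-binding partner, had after-over-before ratios of 0.938, 0.910, 1.14 and 0.960. Of 19 genes of the regulator list, 15 had a ratio of after over before, 4 of them over 2-fold higher and 1 lower. The higher ones were *Ahr*, *Nfe2l2*, *Vdr* and *Nqo1*, the last an AHR target that is also counted among the targets above. The lower one was *Nr5a2*, a nuclear receptor of bile acid and steroid synthesis, with signals of 105, 69.4 and 40.2. *Nr1i2* and *Nr1i3*, the receptors PXR and CAR that induce *Cyp3a* and *Cyp2b* genes in liver, were under the floor on all 3 arrays.

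Probe sets of the same gene gave the only measure of error on these arrays, and it is not a spread between embryos. Over all genes with several probe sets above the floor, the SD of their log2 ratios was 0.37 (during over before), 0.46 (after over before) and 0.44 (after over during). Over members it was 0.37, 0.41 and 0.33, from 8, 7 and 7 genes. The widest range within a member was 1.25 in *Cyp51* for during over before, 1.08 in *Cyp2d22* for after over before and 0.82 in *Cyp4f16* for after over during. The 2-fold mark is 1 on this scale, and the ratios of *Cyp4f13*, *Cyp7b1*, *Cyp1a1* and *Cyp1b1* that passed it did so by less than the SD over all genes. So did the after-over-before ratios of *Cyp2d22* and *Cyp2s1*. The bounds of *Cyp46a1* and *Cyp2c70* also passed it narrowly. Their size is set by the floor, and the SD comes from ratios measured on both arrays, so it does not give their error. *Cyp2f2*, *Cyp2s1*, *Cyp4a12a* and *Cyp4f39* were each represented by a single probe set.

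**Figure D5:**
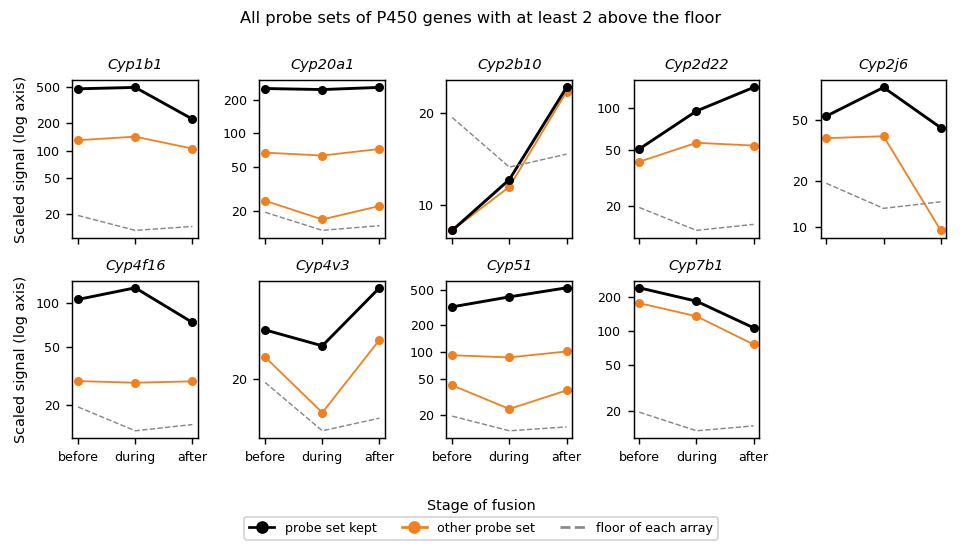
Scaled signals before, during and after fusion of every probe set that passed the floor on 1 array or more, for the 9 P450 genes with several, with the probe set kept for the gene in black, others in orange and the floor of each array dashed, on log axes that differ between panels. Both probe sets of *Cyp7b1* fall together, whereas those of *Cyp2d22* part after fusion at 139.5 and 53.7.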

How the data were processed

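Total RNA from palatal tissue at 3 stages was labelled and hybridized to 1 array each. The authors deposited intensity values, background-corrected MAS5 signals in linear units, 1 for each probe set, computed with GeneChip Operating Software. The scaling target and software version are not given in the sources used here. The labels name the RNeasy Plus Micro Kit for RNA and the methods name Trizol. The labels describe the shelf edge at each stage. The members and gene lists were chosen with earlier results of these data known.

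The table holds 45101 probe sets, 64 of them controls. Of the other 45037, 34945 name 1 gene in GEO's platform annotation, 932 several and 9160 none. For 34741 of the single symbols the gene was found by its ID in RefSeq genes of GRCm38.p6. All 96 member probe sets matched, and 19 members had several probe sets. The probe set with the highest mean stood for its gene. Because the deposited trimmed means differed by over 10% (124, 150.0 and 140 before, during and after fusion, 2% left out at each end), arrays were scaled to one trimmed mean. A signal under the floor was set to the floor, which makes a ratio with 1 side under it a bound. No ratio was given with both sides under it, or where the floors of the arrays alone would have set its direction. A deposited 0 (4 values) was taken as 0.1. The number of arrays limits the precision.

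Named genes were the members past 2-fold, those above the floor on all 3 arrays, the brightest of each family wholly under it, and for the fixed lists up to 4 genes with the largest change and the tissue markers. The members above the floor on 1 or 2 arrays, the genes near *Cyp2f2*, and partner, target and receptor genes inside 2-fold were named after their values were seen. Gene clusters were runs of P450 genes with at most 5 protein-coding genes between neighbours. Some genes of the lists were not analysed here. The alternatives were 10 planned ones (floor, scaling, probe set per gene and threshold) and 1 added after seeing the data, one common floor. The steps were tested on simulated data. Python 3.11.15, numpy 2.4.6, pandas 2.3.3 and scipy 1.17.1 were used.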

Additional observations from a re-analysis of the deposited data

How the results depend on the processing

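No named P450 ratio past 2-fold changed direction under the alternatives that gave it a value (9 or 10 for each ratio), and the number of members under the floor throughout (39) lay between 38 and 53 where a floor was set. For during over before fusion (2 higher, 1 lower), no floor gave 7 higher and 14 lower, and a floor at each array's median gave 1 and 0. The higher count was 1 with one median, quantile normalization, poly-A controls and probe sets with no suffix in their ID, which leave out that of *Cyp2f2*. The lower count was 0 with signals as deposited, hybridization controls and one common floor, and poly-A controls gave 2. For after over before (6 and 2), no floor gave 17 and 16, signals as deposited 0 lower, poly-A controls 5 lower, and the median over probe sets 1 lower. For after over during (4 and 2), no floor gave 19 and 11, and one median, quantile normalization and probe sets with no suffix each gave 1 lower. At 4-fold the counts were 1 and 0 for during over before, 2 and 0 for after over before, and 0 lower for after over during. With no floor the 71 members include those under background.

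Scaling moved the whole array. The median log2 ratio of all genes for during over before was 0.25 with signals as deposited, -0.13 with one median, 0.09 with hybridization controls and -0.31 with poly-A controls. In the comparison of after with before it was 0.10 as deposited and -0.47 with poly-A controls, and for after over during 0.11 with one median and -0.20 with hybridization controls. The members' median fell below 0 for during over before with one median (-0.06), poly-A controls (-0.23) and no floor (-0.17), for after over before with poly-A controls (-0.37) and no floor (-0.20), and for after over during with hybridization controls (-0.02). Of all genes past 2-fold, 63.2% were higher during than before, against 87.1% as deposited and 30.2% with poly-A controls. After over before it was 56.8%, against 70.9% and 28.0%, and after over during 63.3%, against 76.3% with one median and 46.9% with hybridization controls. No paired analysis was possible because each stage had 1 array. Signal over background limits the rest: of the 32 members above the floor anywhere, 17 were under it on at least 1 array, so their ratios are mostly bounds or could not be given.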
